A study of Homo sapiens with 60 samples.

Results

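The 34 genes described here are MYC and 33 genes whose products make ribosomes in the nucleolus. They were taken by symbol from a table of 60675 genes, all 34 were found, and all 34 were among the 17919 genes with enough counts to test. The table holds RNA sequencing of cells of the human astrocytoma line SW1783, each treated for 24 h. Wortmannin, LY294002 and thioridazine were each given at 10 µM. Wortmannin, a fungal product, and LY294002, a synthetic chromone, both inhibit PI3-kinase, and thioridazine is a phenothiazine antipsychotic. Hot-water extracts were made of the fungus Poria Cocos (poria), of the roots Glycyrrhizae Radix (licorice), Paeoniae Radix (peony), Angelicae Gigantis Radix (angelica) and Panax Ginseng (ginseng), and of Atractylodis Rhizoma (atractylodes). They were given at 20, 100 and 500 µg/mL, called the low, medium and high dose. The vehicle was DMSO, at 0.1% in the sample labels and 2% in the series text. The labels used here do not say in which solvent the extracts reached the cells, so where an extract is set against vehicle its solvent and its own part cannot be told apart. All groups were of the 1 cell line with no genetic change named. The 60 libraries form 22 groups, of 3 libraries each except for 2 in each angelica and peony group, whose replicate 3 was not analysed here. Nothing in the labels says whether replicates were separate cultures, so p-values measure only the spread between these libraries.

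Ribosomal RNA is transcribed in the nucleolus by RNA polymerase I, then cut, folded and chemically modified while ribosomal proteins are added. Small nucleolar RNA particles of the box C/D and box H/ACA classes guide the modifications, and separate sets of factors assemble the small and the large subunit. MYC, a transcription factor that pairs with MAX and binds the E-box CACGTG, is known to drive many of these genes, and PI3-kinase signalling through mTOR is known to raise ribosome production in growing cells.

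Each library held between 19.45 and 30.87 M counts (median 26.05 M), and levels are given in CPM, counts per M of the library total after TMM scaling. The cell type markers of this paragraph are the exception, as counts per M of all counts without TMM scaling. The astroglial markers GFAP, S100B, AQP4 and ALDH1L1 had medians of 0.0677, 0.0791, 0 and 0 CPM, while SLC1A3, another glial gene, had 23.7 CPM, and the mesenchymal markers VIM and CD44 had 5369 and 2617 CPM. Of the markers of other cell types MOG, AIF1 and CDH1 were at 0 in 57, 55 and 36 libraries and EPCAM in 18. By contrast, SYT1, SNAP25, PTPRC and the oligodendrocyte marker MBP had medians of 33.99, 21.4, 8.79 and 6.07 CPM. The summed astroglial level, mostly SLC1A3, was 35.7 to 38.3 CPM after wortmannin, 24.0 to 26.7 CPM after LY294002 and 33.96 to 35.1 CPM after thioridazine, against 19.5 to 22.9 CPM in vehicle libraries. The sum of 3 neuronal markers was 74.8 to 82.4, 59.99 to 64.3 and 85.9 to 90.8 CPM after wortmannin, LY294002 and thioridazine, against 55.0 to 57.4 CPM in vehicle libraries. That of 3 markers of microglia and blood, mostly PTPRC, was 5.96 to 6.67, 5.35 to 6.91 and 3.56 to 3.84 CPM, against 8.14 to 8.81 CPM in vehicle libraries. That of 3 oligodendrocyte markers, mostly MBP, was 5.80 to 7.13, 5.25 to 5.95 and 9.44 to 11.3 CPM, against 5.12 to 5.52 CPM in vehicle libraries. The sum of VIM, CD44 and NES was 6319.5 to 6567 CPM after thioridazine, against 8336 to 8647.5 CPM in vehicle libraries. Some extract groups lay outside the vehicle range too. In licorice high this sum was 6889 to 7140 CPM and the astroglial sum 15.6 to 18.2 CPM. In peony high the astroglial sum was 26.4 to 31.7 CPM and the oligodendrocyte sum 8.03 to 10.2 CPM. Mitochondrial genes took 6.07 to 6.70% of counts after wortmannin, 6.03 to 6.42% after LY294002 and 4.64 to 5.43% after thioridazine, against 5.42 to 5.90% in vehicle libraries. The part of these markers and of the mitochondrial share in the results was not tested. In these bulk samples fewer cells of a type and less RNA per cell cannot be told apart. All sample titles carry the same batch label, BatchA. By their sample codes, which the labels used here do not explain, the vehicle libraries form a set of their own, with the treatments in 4 other sets. A comparison with vehicle is thus also one between sets of codes, and the 2 cannot be told apart. In addition, 5 libraries were treated as standing apart, a choice made after the data were seen. They were licorice medium replicate 3, angelica low replicate 2 and the first replicates of ginseng low, peony high and atractylodes high. Results that rest on them are given with and without them. Ginseng low replicate 1 was the mildest. Its root mean square distance from its set median was 0.356 on the log2 scale, under the 0.409 to 0.416 of the licorice high libraries in that set.

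Promoters were read for 28 of the 34 genes from RefSeq on GRCh38.p14, as 250 bases before to 50 bases after a transcription start. The E-box CACGTG, which reads the same on both strands, was found in 13 of their 37 promoters (35.1%), belonging to 13 genes, against 7.26% of all promoters in the table and 9.12% of those of genes tested. The promoters of LYAR, UTP20 and DDX21 are shown because these genes were among the lowest after LY294002, with CACGTG in capitals, and 1 of the 2 promoters of NPM1 is shown as that of a lowered gene with no CACGTG in either. LYAR and DDX21 each have a further promoter in the table, with no CACGTG. Each is printed 5′ to 3′ in the gene's own direction.
LYAR, chr4:4289972-4290271, minus strand: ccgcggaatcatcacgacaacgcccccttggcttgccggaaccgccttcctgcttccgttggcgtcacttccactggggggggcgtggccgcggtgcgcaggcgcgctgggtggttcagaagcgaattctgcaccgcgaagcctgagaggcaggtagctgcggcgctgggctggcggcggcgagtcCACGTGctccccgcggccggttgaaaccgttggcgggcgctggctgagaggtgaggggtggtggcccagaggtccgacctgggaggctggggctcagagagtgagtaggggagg
UTP20, chr12:101279855-101280154, plus strand: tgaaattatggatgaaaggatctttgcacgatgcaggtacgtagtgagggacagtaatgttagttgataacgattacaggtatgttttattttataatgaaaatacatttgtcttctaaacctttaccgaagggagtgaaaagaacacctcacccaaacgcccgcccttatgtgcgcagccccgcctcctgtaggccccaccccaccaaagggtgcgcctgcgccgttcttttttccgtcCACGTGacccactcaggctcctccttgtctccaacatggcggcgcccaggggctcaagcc
DDX21, chr10:68956397-68956696, plus strand: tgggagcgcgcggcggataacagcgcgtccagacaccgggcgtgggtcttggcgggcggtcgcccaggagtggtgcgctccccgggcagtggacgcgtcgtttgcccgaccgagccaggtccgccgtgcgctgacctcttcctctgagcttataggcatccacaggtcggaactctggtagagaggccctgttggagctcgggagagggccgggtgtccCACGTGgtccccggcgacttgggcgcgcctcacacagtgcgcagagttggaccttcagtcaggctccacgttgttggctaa
NPM1, chr5:171386866-171387165, plus strand: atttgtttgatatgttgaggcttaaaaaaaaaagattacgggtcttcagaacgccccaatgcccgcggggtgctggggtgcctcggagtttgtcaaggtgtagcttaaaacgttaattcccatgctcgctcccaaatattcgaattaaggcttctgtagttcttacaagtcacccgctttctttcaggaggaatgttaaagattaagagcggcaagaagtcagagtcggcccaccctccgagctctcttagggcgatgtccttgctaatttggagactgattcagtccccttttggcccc

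The motif began 64 bases before the start of LYAR, 10 bases before that of UTP20 and 31 bases before that of DDX21. A match is a description of the letters only. The other genes with the motif were WDR43, MYBBP1A, FBL, GAR1, GNL3, NOP14, NOP2, PES1, RRP9 and UTP4. BOP1, MYC, NOLC1, NOP58, RRP12 and RRP1B had no entry.

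In vehicle libraries, levels per kilobase of merged exons spanned a wide range among the 34 genes. NPM1 (nucleophosmin, an abundant histone and ribosome chaperone) led with 399 CPM per kb, and NCL (nucleolin), NHP2, FBL and DDX21 followed with 87.5, 72.8, 68.3 and 57.7 CPM per kb. MYC had 20.9 CPM per kb, near the middle of the order, and WDR12 and POLR1B were lowest with 3.91 and 3.83 CPM per kb. Some of these values are uncertain, because reads can be shared with copies or overlapping genes. NPM1 has 45 named pseudogenes, and RRN3, NOP56, NCL, NHP2, PES1 and LYAR have 1 to 3 each. PPAN has a readthrough transcript with P2RY11, POLR1C shares exon bases with YIPF3 and XPO5, and NOP2 with another coding gene. GNL3, MYBBP1A, NHP2, NOB1, NOP14, NOP16, PES1, RRP12, UBTF, UTP4 and WDR12 overlap genes of the opposite strand, GRWD1 overlaps KCNJ14 on its own strand, and the strand setting of the counting was not given in the sources used here.

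All 3 drugs lowered nearly the whole set. Fold changes below are over vehicle on the log2 scale unless another comparison is named, and where 3 are given they are for wortmannin, LY294002 and thioridazine in this order. By the quasi-likelihood test of edgeR, adjusted after Benjamini and Hochberg over all genes with a threshold of 0.05, 31 of 34 genes were lower after wortmannin, where 16.4% of all genes tested were lower and 15.4% higher. After LY294002 31 were lower and 1 higher, against 19.9% and 19.4% of all genes (39.3% in either direction). After thioridazine 31 were lower, against 23.8% of all genes, and 0 were higher, against 24.6% (48.4% in either direction). The median log2 fold change of the 34 genes was -0.33, -0.41 and -0.42, where the median over all genes was 0.02 in each comparison. Every library of the drug lay below every vehicle library for 31 genes after wortmannin, 33 after LY294002 and 32 after thioridazine, where 24.5%, 24.7% and 29.1% of all genes lay below in this way. The summed level of the 33 genes other than MYC was 3921 CPM after wortmannin, 3733 CPM after LY294002 and 3688 CPM after thioridazine, against 5040 CPM in vehicle libraries (means of 3). NPM1 and NCL, with 1528 and 606 CPM in vehicle libraries, weigh most in this sum. Each of these comparisons uses the 3 vehicle libraries, so none is independent of the others. The 34 genes were also chosen with earlier results of these data known, so their counts beside all genes are a description and no test.

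**Figure D1:**
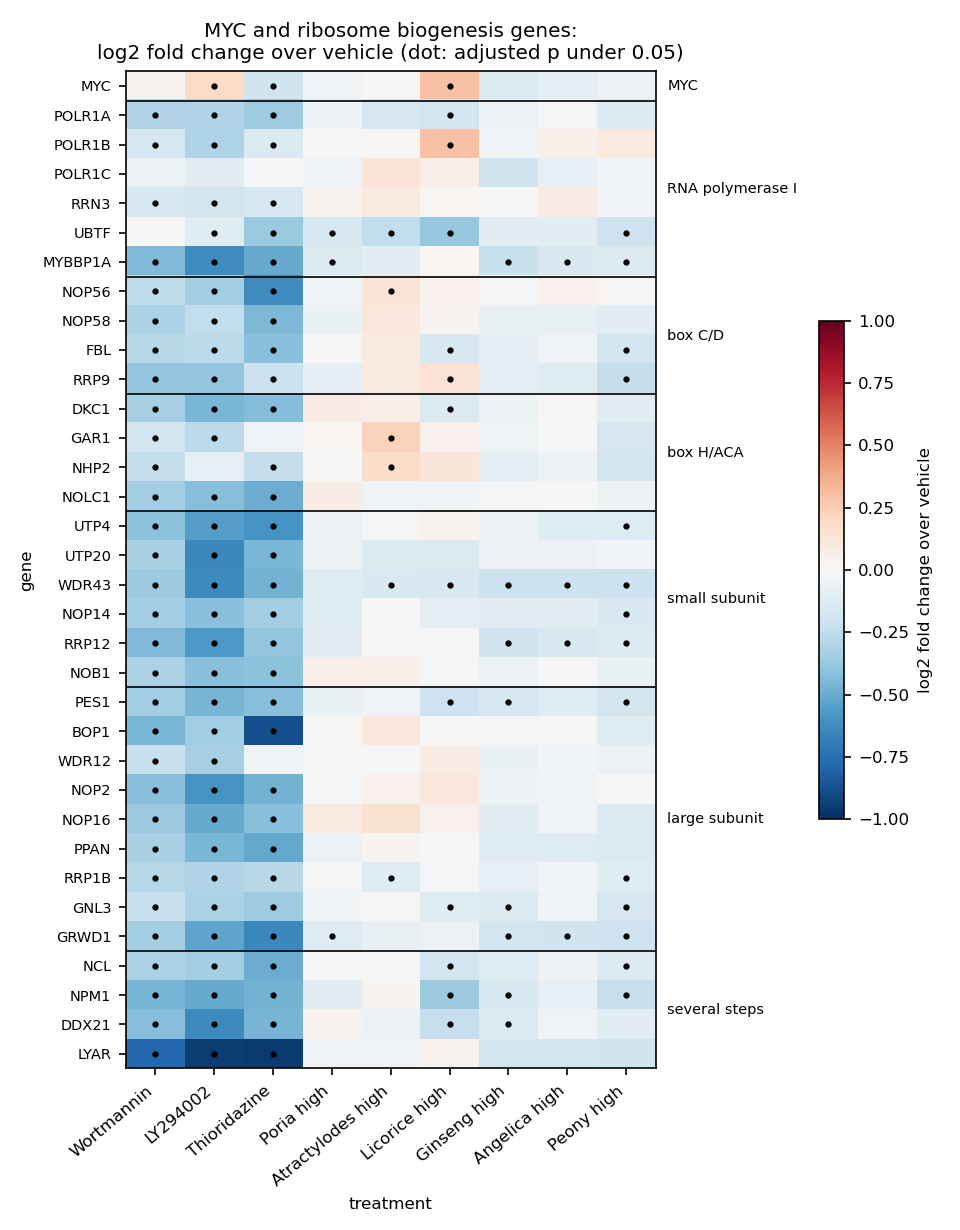
Log2 fold change over vehicle of the 34 genes (rows, grouped by role) after 3 drugs and 6 extracts at the high dose (columns), with red for higher, blue for lower and a dot where the adjusted p was under 0.05. The drug columns hold 31 genes called lower each, while the extract columns hold 3 to 14 called genes each.

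The 3 genes not called after wortmannin were MYC, UBTF and POLR1C, those after LY294002 were NHP2 and POLR1C, and those after thioridazine were GAR1, WDR12 and POLR1C. POLR1C, a subunit that RNA polymerases I and III share, was the 1 gene missing from all 3 calls, with log2 fold changes of -0.05, -0.11 and -0.02. Leaving out any 1 library left 28 to 30 genes called after wortmannin, 30 to 32 after LY294002 and 29 to 30 after thioridazine. All genes that lost their call in this way were among GAR1, POLR1B, RRN3 and UBTF, whose values are given below.

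MYC itself moved differently after each drug. It stood at 62.8, 62.2 and 66.5 CPM after wortmannin, at 70.1, 74.4 and 71.0 CPM after LY294002 and at 55.3, 55.0 and 53.5 CPM after thioridazine, against 63.8, 61.3 and 63.4 CPM in vehicle libraries. The LY294002 libraries were all higher than the vehicle libraries, the thioridazine libraries all lower, and the wortmannin libraries overlapped with vehicle. The log2 fold change was 0.19 ± 0.06 (SE, edgeR adjusted p = 0.00943) after LY294002, -0.20 ± 0.06 (adjusted p = 0.0056) after thioridazine and 0.02 ± 0.06 (adjusted p = 0.819) after wortmannin. After LY294002, then, MYC was higher while 31 of the other 33 genes were lower.

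Over all 22 groups MYC was highest in licorice high, at 77.0 ± 1.05 CPM (SD, n = 3), where its 3 libraries lay above every other library. LY294002 came next with 71.8 ± 2.26 CPM, followed by licorice medium with 69.2 ± 1.55, angelica low with 68.3 ± 8.34 (n = 2), peony medium with 66.2 ± 1.94 (n = 2) and licorice low with 65.8 ± 3.23 CPM. Wortmannin, ginseng low, atractylodes high and vehicle stood close together at 63.8 ± 2.36, 63.5 ± 5.67, 63.4 ± 2.62 and 62.8 ± 1.35 CPM (n = 3 each). The groups that followed lay between 61.2 CPM in poria high and 58.6 CPM in angelica high, and ginseng high with 56.9 ± 2.20 and thioridazine with 54.6 ± 0.968 CPM were lowest. Each pair of neighbours in this order overlapped in their libraries except for licorice high and LY294002.

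**Figure D2:**
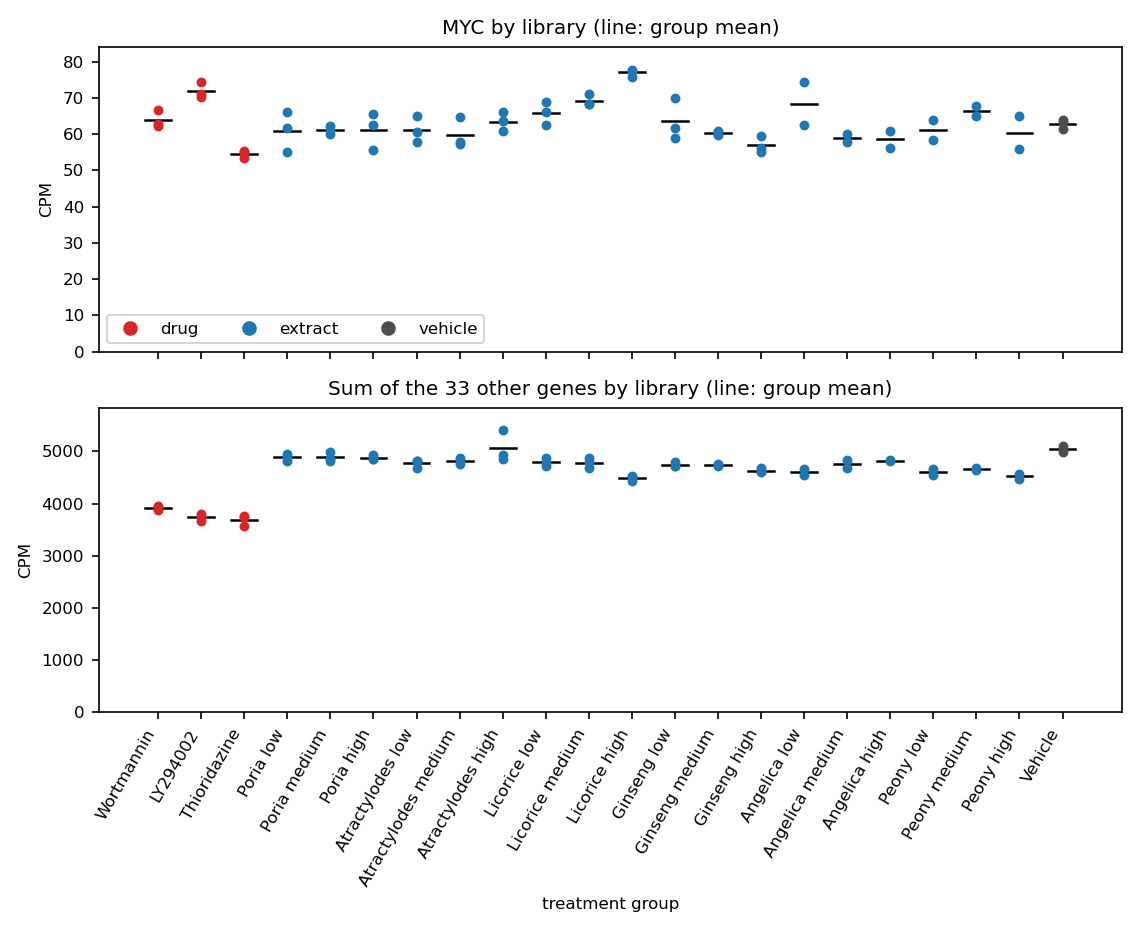
MYC (top) and the sum of the other 33 genes (bottom) in CPM for each of 60 libraries (points) with group means (lines), drugs in red, extracts in blue by dose and vehicle in grey. The drug groups have the lowest sums, 3688 to 3921 CPM, while MYC is lowest after thioridazine and highest after licorice high.

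The factors of RNA polymerase I were the least lowered of the role groups, with medians of -0.16, -0.24 and -0.26 after wortmannin, LY294002 and thioridazine and 4, 5 and 5 of 6 genes called. MYBBP1A, a MYB-binding nucleolar protein, was the exception. It had 111, 113 and 113 CPM after wortmannin, 98.0, 102 and 97.4 CPM after LY294002 and 109, 106 and 108 CPM after thioridazine, against 152, 154 and 150.1 CPM in vehicle libraries. All treated libraries lay well under vehicle, with log2 fold changes of -0.44, -0.62 and -0.50 (SE 0.04 each, adjusted p of 3.5e-12, 2.61e-17 and 5.63e-15).

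UBTF, the upstream binding factor that opens ribosomal genes, differed between the drugs. It had 107, 106 and 103 CPM after wortmannin, 99.0, 98.6 and 93.9 CPM after LY294002 and 82.2, 83.0 and 78.6 CPM after thioridazine, against 107, 107 and 102 CPM in vehicle libraries. Wortmannin libraries overlapped with vehicle, LY294002 libraries lay just under it and thioridazine libraries clearly under it, at -0.00, -0.12 and -0.37 on the log2 scale (adjusted p of 0.971, 0.0132 and 6.89e-12). The call after LY294002 ended without vehicle replicate 1 or 2 or LY294002 replicate 3, with adjusted p of 0.091, 0.0842 and 0.135.

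RRN3, the factor that brings the polymerase to the promoter, had 58.0, 59.96 and 54.4 CPM after wortmannin, 54.6, 55.2 and 58.2 CPM after LY294002 and 59.5, 54.6 and 57.2 CPM after thioridazine, against 62.5, 66.0 and 62.8 CPM in vehicle libraries. POLR1B, another large subunit, had 22.4, 19.4 and 22.6 CPM after wortmannin, 19.4, 19.9 and 19.4 CPM after LY294002 and 22.1, 21.6 and 22.2 CPM after thioridazine, against 24.5, 24.6 and 23.6 CPM in vehicle libraries. Neither gene overlapped with vehicle, but both changes were small. RRN3 changed by -0.15, -0.19 and -0.16 (adjusted p of 0.0397, 0.00782 and 0.0193) and POLR1B by -0.18, -0.31 and -0.14 (adjusted p of 0.012, 1.79e-05 and 0.0352). The RRN3 call ended without vehicle replicate 2 in each comparison (adjusted p of 0.188, 0.0631 and 0.138), and after wortmannin without any library but wortmannin replicate 2. It ended after thioridazine also without thioridazine replicate 2 (adjusted p = 0.125). The POLR1B call ended after thioridazine without any 1 of the 6 libraries, and after wortmannin without vehicle replicate 2 or wortmannin replicate 2 (adjusted p of 0.0536 and 0.223). POLR1A, the largest subunit, was lower by -0.30, -0.30 and -0.36 with no such loss.

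All 4 genes of the box C/D particle were called lower after each drug. The median changes of NOP56, NOP58, FBL and RRP9 were -0.30, -0.30 and -0.44. NOP56, a core scaffold of the particle, fell most after thioridazine, with 134, 139 and 136 CPM after wortmannin, 121, 129 and 133 CPM after LY294002 and 106, 111 and 98.3 CPM after thioridazine, against 161, 168 and 159 CPM in vehicle libraries. The groups did not overlap with vehicle, and the log2 fold changes were -0.25, -0.34 and -0.63. FBL (fibrillarin), the methyltransferase of the particle, changed by -0.29, -0.27 and -0.42. RRP9, which binds the U3 small nucleolar RNA, changed by -0.40, -0.40 and -0.22.

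Of the box H/ACA genes, DKC1, the pseudouridine synthase, changed by -0.34, -0.46 and -0.43, and NOLC1, a chaperone of nucleolar particles, by -0.34, -0.42 and -0.49 after wortmannin, LY294002 and thioridazine. The small core proteins GAR1 and NHP2 changed less evenly. GAR1 had 19.3, 20.4 and 18.8 CPM after wortmannin, 17.9, 18.5 and 19.2 CPM after LY294002 and 21.96, 22.6 and 20.2 CPM after thioridazine, against 22.8, 22.8 and 21.0 CPM in vehicle libraries. Its thioridazine libraries overlapped with vehicle, at -0.04 on the log2 scale (adjusted p = 0.63), whereas the changes after wortmannin and LY294002 were -0.19 and -0.26 (adjusted p of 0.0214 and 0.00118). The wortmannin call ended without vehicle replicate 1 or 2 or wortmannin replicate 1 or 3, with adjusted p of 0.101, 0.103, 0.0745 and 0.118. NHP2 was lower after wortmannin and thioridazine, at -0.24 in both, and not called after LY294002, at -0.08 (adjusted p = 0.331).

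All 6 factors of the small subunit were called lower after each drug, with medians of -0.35 after wortmannin, -0.57 after LY294002 and -0.43 after thioridazine. UTP20, a large scaffold of the processome that cuts the RNA precursor, had 63.8, 62.8 and 61.1 CPM after wortmannin, 56.5, 48.3 and 45.8 CPM after LY294002 and 59.7, 55.3 and 56.7 CPM after thioridazine, against 79.4, 77.3 and 78.4 CPM in vehicle libraries. WDR43, another processome subunit, had 70.2, 68.4 and 71.8 CPM after wortmannin, 58.1, 57.7 and 58.1 CPM after LY294002 and 65.9, 66.2 and 63.5 CPM after thioridazine, against 89.4, 91.6 and 90.1 CPM in vehicle libraries. For both genes the LY294002 libraries were low, and no treated library reached vehicle. UTP20 changed by -0.32, -0.64 and -0.45 (SE 0.08 each, adjusted p of 0.00114, 1.05e-08 and 5.1e-06) and WDR43 by -0.37, -0.64 and -0.47 (SE 0.05 each, adjusted p of 4.12e-09, 1.42e-16 and 6.22e-13). UTP4, a further processome subunit, changed by -0.41, -0.55 and -0.59, and RRP12, which matures and exports the subunit, by -0.44, -0.58 and -0.39. NOB1, the nuclease of the final cut, changed by -0.32, -0.42 and -0.41 and NOP14 by -0.34, -0.42 and -0.34.

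Of 9 large-subunit factors, 9, 9 and 8 were called lower after wortmannin, LY294002 and thioridazine, with medians of -0.34, -0.46 and -0.43. BOP1, which forms a complex with PES1 and WDR12, had 67.3, 68.0 and 70.5 CPM after wortmannin, 70.3, 77.6 and 74.2 CPM after LY294002 and 54.0, 48.7 and 50.5 CPM after thioridazine, against 93.1, 95.1 and 93.7 CPM in vehicle libraries. Thioridazine libraries were the lowest and no treated library reached vehicle, with changes of -0.45, -0.34 and -0.88 (SE 0.06 each, adjusted p of 1.27e-08, 3.84e-06 and 2.31e-18). Of its partners, PES1 changed by -0.35, -0.47 and -0.43, and WDR12 by -0.22, -0.33 and -0.03, the last of which was not called (adjusted p = 0.668).

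GRWD1, a chaperone of a ribosomal protein, had 59.6, 57.6 and 61.3 CPM after wortmannin, 51.2, 53.3 and 52.1 CPM after LY294002 and 50.8, 44.6 and 48.8 CPM after thioridazine, against 73.2, 78.3 and 74.0 CPM in vehicle libraries. No treated library reached vehicle, and the changes were -0.34, -0.53 and -0.64 (SE 0.04 each, adjusted p of 1.48e-09, 1.6e-15 and 1.06e-19). The other members changed by -0.42, -0.59 and -0.47 (NOP2, an RNA methyltransferase), -0.36, -0.50 and -0.42 (NOP16), -0.33, -0.46 and -0.51 (PPAN), -0.28, -0.30 and -0.28 (RRP1B) and -0.22, -0.31 and -0.36 (GNL3, the GTPase nucleostemin).

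The largest fall of the set was that of LYAR, a nucleolar protein. It had 13.8, 12.8 and 13.5 CPM after wortmannin, 12.1, 11.9 and 11.7 CPM after LY294002 and 13.7, 10.1 and 11.7 CPM after thioridazine, against 22.3, 23.7 and 23.0 CPM in vehicle libraries. The treated groups lay far under vehicle and close to each other, with changes of -0.78, -0.95 and -0.95 (SE 0.07 each, adjusted p of 1.04e-12, 2.28e-15 and 2.26e-16).

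NPM1 had 1120.3, 1097 and 1113 CPM after wortmannin, 1052, 1113 and 1063 CPM after LY294002 and 1109, 1127 and 1066 CPM after thioridazine, against 1531, 1559.8 and 1495 CPM in vehicle libraries. The 3 drugs gave like levels, with changes of -0.46, -0.51 and -0.47 (SE 0.05 each, adjusted p of 2.53e-11, 1.01e-12 and 1.98e-12). NCL, which binds ribosomal RNA precursors, changed by -0.31, -0.34 and -0.50. DDX21, an RNA helicase of the nucleolus, had 224, 213 and 210.4 CPM after wortmannin, 186, 192 and 181 CPM after LY294002 and 211, 214 and 203 CPM after thioridazine, against 291, 293 and 285 CPM in vehicle libraries. LY294002 libraries were the lowest and no treated library reached vehicle, with changes of -0.42, -0.64 and -0.47.

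**Figure D3:**
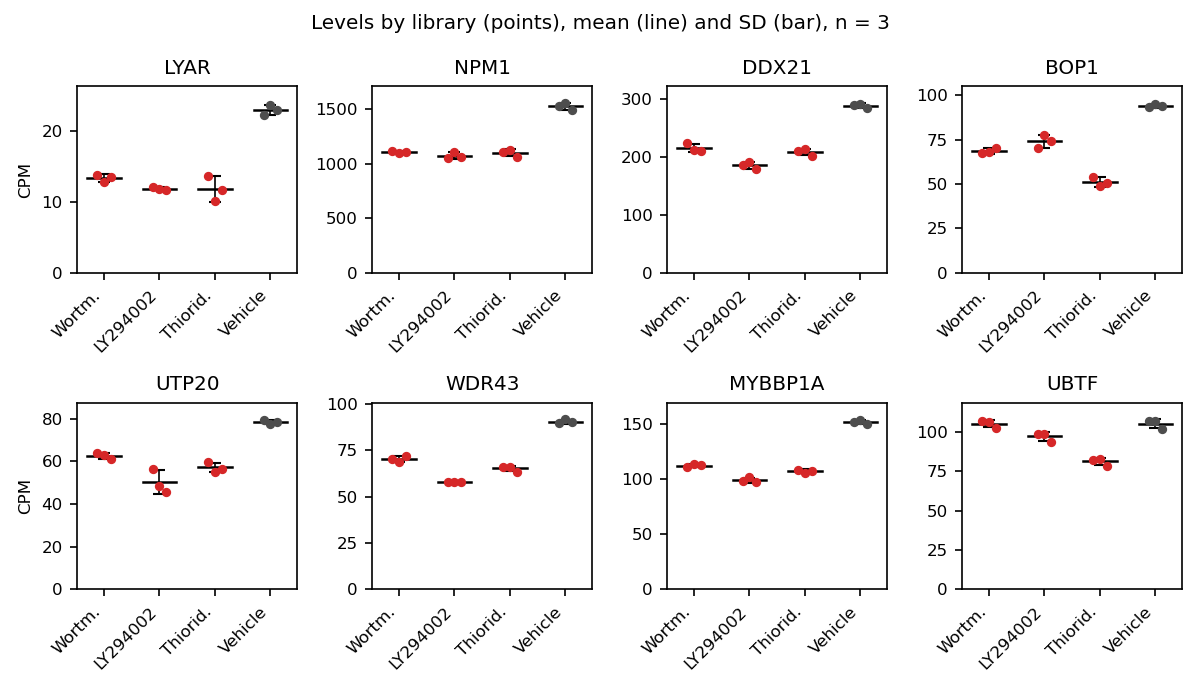
Levels in CPM of 8 of the genes by library (points) with group mean (line) and SD (bar, n = 3) after wortmannin, LY294002 and thioridazine and in vehicle. UBTF overlaps with vehicle after wortmannin, and the other 7 genes lie below vehicle in all 9 drug libraries.

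Wortmannin and LY294002 are unlike in structure and were given at the same concentration and for the same time. Whether 10 µM of each inhibits PI3-kinase equally was not tested. This single pair was compared in a test that uses no vehicle library. Of the 34 genes 10 were higher and 1 lower after wortmannin than after LY294002, against 8.79% and 7.57% of all genes, and the median difference was 0.10, against -0.00 over all genes. UTP20 and WDR43 differed by 0.32 ± 0.08 and 0.27 ± 0.05 on the log2 scale (adjusted p of 0.00481 and 1.69e-05), DDX21 by 0.21, GRWD1 by 0.19, MYBBP1A by 0.18, NOP2 by 0.17, UTP4 by 0.15, RRP12 by 0.14, DKC1 by 0.12 and UBTF by 0.11. Most of these genes were thus lowered less by wortmannin than by LY294002. MYC was the gene that was lower after wortmannin, by -0.17 ± 0.06 (adjusted p = 0.0493), a call that ended without wortmannin replicate 1 or 2 or any 1 LY294002 library (adjusted p of 0.0552 to 0.18). Without 1 library the count of called genes was 5 without wortmannin replicate 1, 6 without LY294002 replicate 2, 7 without LY294002 replicate 3 and 9 without each of the other 3. The call of UTP20 ended without LY294002 replicate 3 (adjusted p = 0.0556). For the 23 genes not called the difference lay between -0.16 and 0.17, and the intervals of 2 SE on either side reached from -0.29 for NHP2 to 0.33 for LYAR. For NPM1 the interval was -0.05 to 0.14 and for RRP9 -0.11 to 0.11.

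The related lists here and in the next paragraphs were likewise chosen with earlier results of these data known, so their counts are descriptions. In related lists, the shares of all genes tested to read the counts against were, as above, 16.4%, 19.9% and 23.8% lower and 15.4%, 19.4% and 24.6% higher after wortmannin, LY294002 and thioridazine. Of 44 other small-subunit factors 30, 37 and 33 were lower after wortmannin, LY294002 and thioridazine and 1, 0 and 1 higher, with medians of -0.22, -0.33 and -0.29. NOL6, among the 3 with the lowest p after each drug, changed by -0.36, -0.50 and -0.51, the helicase DHX37 by -0.48, -0.64 and -0.33, and the RNA acetyltransferase NAT10 by -0.32, -0.49 and -0.51. AATF changed by -0.47 after wortmannin, and NOL11 by -0.52 after thioridazine. Of 42 other large-subunit factors 34, 32 and 33 were lower and 1, 3 and 4 higher, with medians of -0.25, -0.32 and -0.31. RPF2, which brings the 5S particle to the subunit, changed by -0.55, -0.73 and -0.39, RSL1D1 by -0.41, -0.49 and -0.41, and NOC2L by -0.40, -0.36 and -0.61. PAK1IP1 changed by -0.73 after LY294002, and MRTO4 and LAS1L by -0.66 and -0.52 after thioridazine. NOP53, also a large-subunit factor, went the other way and was chosen here after its values were seen, at 67.0, 65.2 and 69.8 CPM after wortmannin, 69.8, 73.2 and 69.9 CPM after LY294002 and 73.6, 73.4 and 84.3 CPM after thioridazine, against 54.0, 56.6 and 54.1 CPM in vehicle libraries.

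Among 10 other RNA polymerase I genes 3, 6 and 6 were lower and 0 higher. The subunits POLR1E and POLR1G had larger fold changes than the RNA polymerase I factors of the set, POLR1E by -0.59, -0.67 and -1.06 and POLR1G by -0.52, -0.89 and -0.95. TAF1B, of the promoter selectivity factor, changed by -0.27 after wortmannin and the subunit POLR1F by -0.18 and -0.25 after LY294002 and thioridazine. Among 10 assembly factors of the small nucleolar particles 2, 8 and 7 were lower and 0, 1 and 1 higher, and the 2 after wortmannin are near the 16.4% of all genes. The ATPases RUVBL1 and RUVBL2 changed by -0.39, -0.31 and -0.47 and by -0.40, -0.23 and -0.57, SHQ1 by -0.29 after LY294002 and ZNHIT6 by -0.21 after thioridazine.

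Targets of MYC outside the nucleolus fell together, with 15, 15 and 14 of 15 genes lower and 0, 0 and 1 higher and medians of -0.22, -0.30 and -0.39. SRM, spermidine synthase, changed by -0.62, -0.65 and -0.66, ODC1, ornithine decarboxylase, by -0.44, -0.30 and -0.49, and HSPD1, a mitochondrial chaperone, by -0.44, -0.41 and -0.43. PPAT, of purine synthesis, and LDHA changed by -0.38 and -0.29 after LY294002. LDHA, lactate dehydrogenase, TYMS, thymidylate synthase, and the translation factor EIF4A1 changed by -1.04, -1.15 and -0.39 after thioridazine, and the gene that rose there was CDK4, at 0.35. Proliferation genes were lower too, 10, 9 and 12 of 12, with medians of -0.28, -0.26 and -0.76. RRM2, of DNA precursor synthesis, changed by -0.56, -0.55 and -2.04, BUB1 by -0.39, -0.37 and -0.78 and AURKA by -0.42, -0.64 and -0.82, and TOP2A and CCNA2 by -0.74 and -0.95 after thioridazine. Their part in the changes of the ribosome genes was not tested.

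In the network of proteins that bind MAX or its relatives, the repressor partners MXD4 and MXI1 rose after all 3 drugs. Of 10 genes tested 2, 5 and 6 were higher and 1, 1 and 1 lower after wortmannin, LY294002 and thioridazine, with medians of 0.08, 0.20 and 0.36, where 15.4%, 19.4% and 24.6% of all genes were higher, a share that the 2 after wortmannin are near. MXD4, which competes with MYC for MAX, had 50.7, 54.6 and 54.9 CPM after wortmannin, 60.9, 65.9 and 65.4 CPM after LY294002 and 48.9, 46.0 and 49.2 CPM after thioridazine, against 31.3, 31.5 and 32.2 CPM in vehicle libraries. MXI1, of the same kind, had 18.6, 19.02 and 18.97 CPM after wortmannin, 18.6, 20.4 and 18.9 CPM after LY294002 and 21.7, 21.1 and 21.3 CPM after thioridazine, against 10.97, 10.3 and 10.1 CPM in vehicle libraries. Both were apart from vehicle in all 9 drug libraries, MXD4 by 0.75, 1.02 and 0.60 (SE 0.05 each, adjusted p of 3.38e-17, 1.68e-22 and 1.16e-14) and MXI1 by 0.85, 0.88 and 1.03 (SE 0.07 each, adjusted p of 6.94e-15, 1.45e-15 and 3.46e-19). MXD1 rose by 0.30 after LY294002 and by 0.82 after thioridazine, and MAX itself rose after thioridazine by 0.36. MXD3 was higher after LY294002, at 0.35, and lower after thioridazine, at -0.69. The genes called lower in the other comparisons were MLXIP after wortmannin, at -0.16, and MLX after LY294002, at -0.32. MYCN was not tested for lack of counts.

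**Figure D4:**
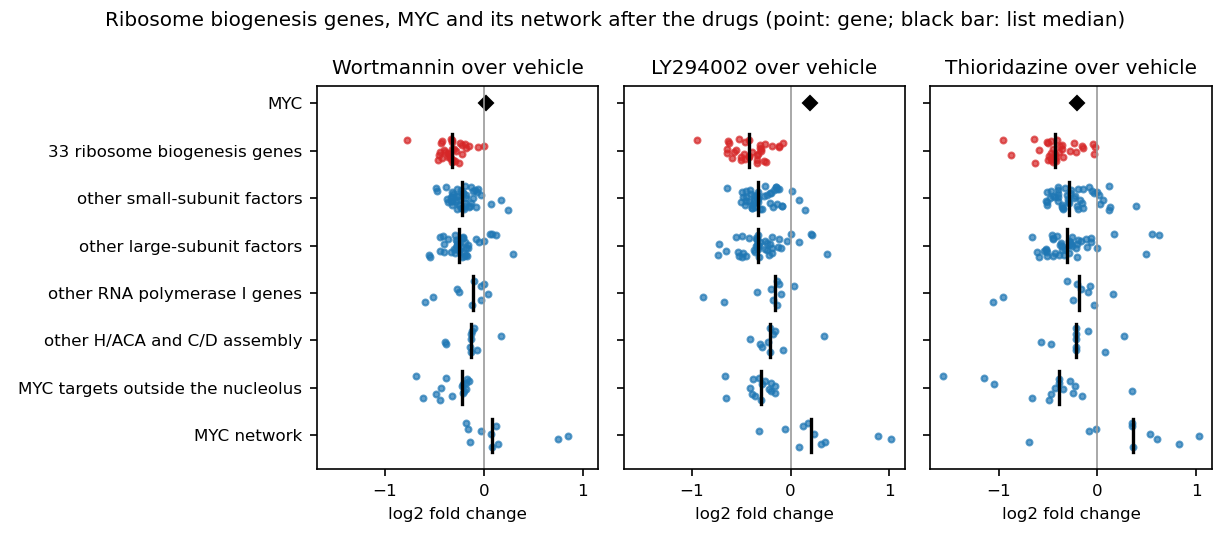
Log2 fold change over vehicle (horizontal axis) of MYC (diamond), the 33 ribosome biogenesis genes (red points), related gene lists and the MYC network (blue points) after each drug, with list medians as black bars. Most genes of the ribosome lists lie below 0, MYC stands at 0.02, 0.19 and -0.20 after wortmannin, LY294002 and thioridazine, and the medians of the MYC network are 0.08, 0.20 and 0.36.

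Because the vehicle libraries form a set of their own, the drugs were also set against the mean of the 6 low-dose extract groups, a comparison added after the data were seen. Of the 34 genes 31, 30 and 31 were lower after wortmannin, LY294002 and thioridazine and 1, 1 and 0 higher, against 20.8%, 23.1% and 27.3% of all genes lower and 19.8%, 22.0% and 27.5% higher. The medians were -0.25, -0.35 and -0.32. MYC remained higher after LY294002 and lower after thioridazine, at 0.18 and -0.22, and was not called after wortmannin, at 0.01 (adjusted p = 0.889). Unlike against vehicle, the MYC levels of each drug overlapped with those of the low-dose libraries. These reached up to 74.2 CPM in angelica low and down to 55.1 CPM in poria low. UBTF was higher after wortmannin than in the low-dose groups, at 0.09 (adjusted p = 0.00976), and not called after LY294002, at -0.02 (adjusted p = 0.599). The low-dose groups lie in sets of their own as well, so drug and set cannot be told apart here either.

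The extracts changed the genes far less than the drugs. The sum of the 33 genes other than MYC lay between 4492 CPM in licorice high and 5065 CPM in atractylodes high, against 5040 CPM in vehicle libraries, and each of the 18 extract groups was above every drug group. Without its replicate 1, which stood apart, atractylodes high had 4894 CPM, under vehicle but still the highest of the extract groups. NPM1 and NCL weigh most in the sum. Licorice high had the lowest sum of the extracts, yet its 34 fold changes had a median of -0.00, with 17 above 0. At the high dose the fold changes ran from -0.38 to 0.29 after licorice and from -0.25 to 0.23 after the other 5 extracts.

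Licorice high had 3 genes higher and 10 lower, against 15.9% and 15.0% of all genes. The median was -0.00, against 0.01 over all genes. MYC had 75.8, 77.8 and 77.5 CPM in licorice libraries, against 63.8, 61.3 and 63.4 CPM in vehicle libraries, and POLR1B had 29.2, 30.3 and 29.7 CPM, against 24.5, 24.6 and 23.6 CPM in vehicle. Both were higher in every licorice library, each by 0.29 ± 0.06 (adjusted p of 0.000135 and 3.13e-05). RRP9 had 59.7, 55.4 and 54.8 CPM in licorice libraries, against 50.02, 52.8 and 51.4 CPM in vehicle libraries, a change of 0.14 (adjusted p = 0.0309) that lost its call without licorice replicate 1 or vehicle replicate 1 or 3 (adjusted p of 0.185, 0.107 and 0.0583).

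UBTF was the most lowered by licorice high, at 80.4, 82.8 and 80.5 CPM, against 107, 107 and 102 CPM in vehicle libraries. NPM1 had 1195, 1216 and 1158 CPM, against 1531, 1559.8 and 1495 CPM in vehicle, and DDX21 had 245, 250.1 and 244 CPM, against 291, 293 and 285 CPM in vehicle libraries. None of the 3 overlapped with vehicle, and they changed by -0.38, -0.36 and -0.23 (SE 0.04, 0.05 and 0.04, adjusted p of 3.5e-11, 1.92e-08 and 2.54e-05). The other lower genes were PES1, NCL, POLR1A, WDR43, FBL, DKC1 and GNL3, at -0.20 to -0.12. Leaving out 1 library left 9 to 12 genes called. Proliferation genes moved with this group, 7 of 12 lower and 1 higher with a median of -0.41, and their part was not tested.

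In its own set and without vehicle, licorice high had 4 genes higher and 3 lower than licorice low, against 9.02% and 9.14% of all genes, so that the count was near the share of all genes. MYC was higher by 0.23 ± 0.06 (adjusted p = 0.0048), POLR1B by 0.16, RRP9 by 0.15 and MYBBP1A by 0.13, and UBTF, NPM1 and NCL were lower, by -0.22, -0.22 and -0.14. The count of 7 was 4 without licorice low replicate 1 or 2, and 5 or 6 without each other library, and MYC, NPM1 and UBTF were called each time. Against vehicle, licorice medium had 4 higher and 7 lower genes (12.4% and 12.8% of all genes, 25.2% in either direction, with the higher count near its share) and licorice low 0 and 1 (1.53% and 1.76% of all genes). That gene, UBTF at -0.16, was not called without vehicle replicate 1 or 2 or licorice low replicate 2 or 3, and 2 genes were called without licorice low replicate 1. Without licorice medium replicate 3, which stood apart, 3 genes were called at the medium dose, all lower, and 7 genes were called without vehicle replicate 3 or without all 5 libraries that stood apart. The mean of MYC was 65.8, 69.2 and 77.0 CPM at the low, medium and high dose, and the low and medium doses were not called against vehicle (adjusted p of 0.645 and 0.0858).

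Within the same set, licorice high had 11 genes higher and 2 lower than ginseng high, against 17.2% and 17.0% of all genes. MYC differed by 0.44 ± 0.06 (adjusted p = 7.48e-08), POLR1B by 0.33, POLR1C by 0.26, MYBBP1A by 0.24, RRP9 by 0.24, LYAR by 0.23 and NHP2 by 0.22. RRP12, NOP2, WDR12 and GRWD1 differed by 0.13 to 0.18, and UBTF and NPM1 were lower, by -0.26 and -0.20. Leaving out 1 library left 11 to 13 genes called, and WDR12 was not called without licorice replicate 2 or 3 or ginseng replicate 1 or 2.

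**Figure D5:**
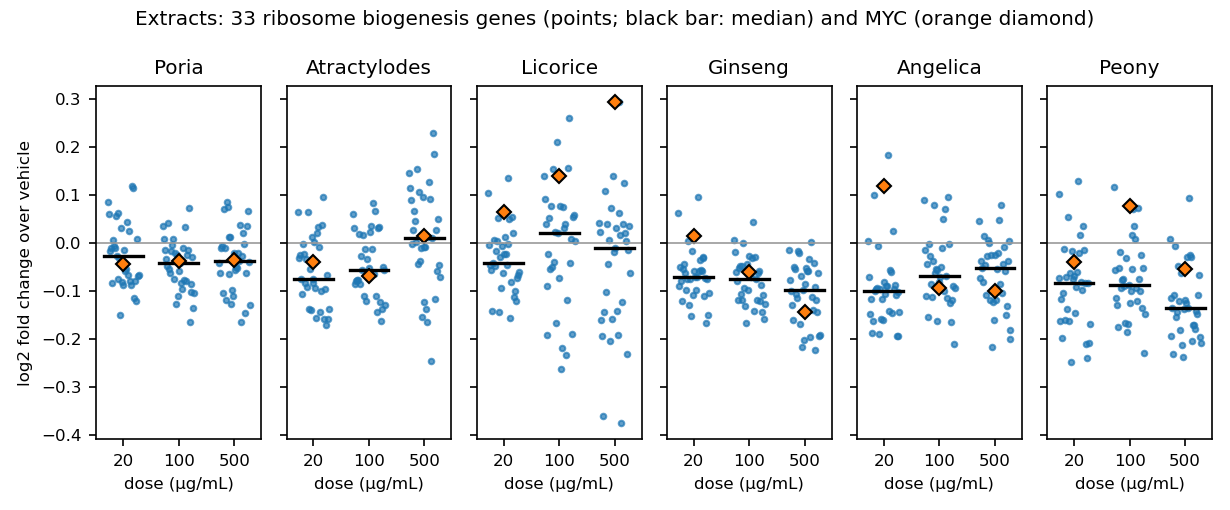
Log2 fold change over vehicle (vertical axis) of the 33 ribosome biogenesis genes (blue points, black bar for the median) and MYC (orange diamond) at 20, 100 and 500 µg/mL of each extract. MYC stands highest at 500 µg/mL of licorice, and most medians lie slightly below 0.

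Ginseng high lowered 8 genes and raised 0, against 4.20% and 3.05% of all genes (7.25% in either direction), with a median of -0.10, and 33 of 34 fold changes were below 0. At the medium and low doses of ginseng 31 and 30 fold changes were below 0, both with a median of -0.07. Most other extract groups leaned below the same 3 vehicle libraries too. At the low doses of poria, atractylodes, licorice, angelica and peony 23, 26, 24, 29 and 29 fold changes were below 0. Licorice high, licorice medium and atractylodes high leaned less, with 17, 14 and 15 below 0. Extract and set cannot be told apart here. All ginseng high libraries lay below all vehicle libraries for 23 genes, where 16.5% of all genes did so. MYBBP1A had 135, 126 and 131 CPM in ginseng libraries, against 152, 154 and 150.1 CPM in vehicle libraries, WDR43 had 77.8, 80.4 and 74.9 CPM, against 89.4, 91.6 and 90.1 CPM in vehicle, and RRP12 had 90.6, 89.8 and 87.8 CPM, against 102, 104 and 102 CPM in vehicle. The groups did not overlap, and the changes were -0.22, -0.22 and -0.20 (adjusted p of 0.000314, 0.00107 and 0.000609). The smallest called changes were those of NPM1, DDX21 and GNL3, at -0.16, -0.14 and -0.14, with 1392, 1348 and 1366 CPM, 269, 266 and 252 CPM, and 102, 109 and 103 CPM in ginseng libraries, against 1531, 1559.8 and 1495 CPM, 291, 293 and 285 CPM, and 119.7, 112 and 114 CPM in vehicle libraries. GRWD1 and PES1 were also lower, at -0.19 and -0.17. MYC had 56.1, 55.1 and 59.3 CPM, under all vehicle libraries, at -0.14 (adjusted p = 0.163), and was called in DESeq2 (adjusted p = 0.029) and in edgeR on these groups alone (adjusted p = 0.00998). Leaving out vehicle replicate 1 or 2 or ginseng replicate 2 or 3 left 4, 5, 5 and 5 genes called, and leaving out vehicle replicate 3 or ginseng replicate 1 left 6. Ginseng high against ginseng low gave 0 called genes in edgeR's test, against 0.223% of all genes higher and 0.430% lower, and 0 in DESeq2, with 5 of 34 at an unadjusted p under 0.05.

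Peony high lowered 14 genes and raised 0, where 10.4% and 10.3% of all genes did (20.7% in either direction), with a median of -0.14 and 32 fold changes below 0. At the medium and low doses of peony 27 and 29 fold changes were below 0, a lean that most extract groups shared. Both peony libraries lay below all vehicle libraries for 26 genes, where 23.7% of all genes did so. RRP9 had 43.1 and 44.0 CPM in peony libraries, against 50.02, 52.8 and 51.4 CPM in vehicle libraries, NPM1 had 1301 and 1303 CPM, against 1531, 1559.8 and 1495 CPM in vehicle, and WDR43 had 78.5 and 77.4 CPM, against 89.4, 91.6 and 90.1 CPM in vehicle. No peony library reached vehicle, and the changes were -0.24, -0.23 and -0.21 (adjusted p of 0.00278, 0.00125 and 0.00188). The smallest called changes were those of RRP1B, UTP4 and NCL, at -0.12, -0.13 and -0.14, with 89.7 and 89.6 CPM, 87.4 and 90.9 CPM, and 545 and 559.7 CPM. The rest were GRWD1, UBTF, FBL, PES1, GNL3, NOP14, MYBBP1A and RRP12. Replicate 1 stood apart from its set, and without it in that fit 3 genes stayed called. Without all 5 such libraries 7 were called, and without vehicle replicate 1 or 2 the counts were 7 and 9. Without peony replicate 2 the count was 17. MYC had 55.8 and 64.9 CPM, on both sides of vehicle.

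At lower peony doses the genes called lower were 1 at the medium dose, WDR43, and 7 at the low dose, led by WDR43 and DDX21 at -0.25 and -0.24 (adjusted p of 0.00154 and 0.00124), against 0.988% and 2.50% of all genes lower. At the medium dose 1.56% of all genes were higher and 2.55% were called in either direction. The medium-dose call ended without any 1 library, whereas other fits called more genes at that dose, 4 with RLE size factors, 5 in DESeq2 and with the replicate block and 13 in edgeR on the 2 groups alone. The low-dose count was 0 without peony low replicate 2, 3 without peony low replicate 1 and 4 without vehicle replicate 1 or 2. Peony high against peony low gave 1 lower gene, near the 3.13% of all genes, and 0 higher, against 2.78%. The gene was RRP9, at -0.22 (adjusted p = 0.0286). That call ended without peony high replicate 1 or either peony low library, and UBTF was called too without peony high replicate 2. Peony high against angelica high, in the same set, gave 0 called genes in edgeR's test, against 2.20% and 2.14% of all genes, and 0 in DESeq2, with 6 of 34 at an unadjusted p under 0.05. Without peony replicate 2, FBL and UBTF were lower.

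Angelica high lowered 4 genes and raised 0, against 3.53% and 2.94% of all genes (6.46% in either direction), with a median of -0.05. Both angelica libraries lay below all vehicle libraries for 18 genes, where 21.9% of all genes did so. WDR43 had 79.1 and 76.5 CPM in angelica libraries, against 89.4, 91.6 and 90.1 CPM in vehicle libraries, and GRWD1 had 65.1 and 65.7 CPM, against 73.2, 78.3 and 74.0 CPM in vehicle. RRP12 had 90.8 and 93.3 CPM, against 102, 104 and 102 CPM in vehicle, and MYBBP1A had 135 and 139 CPM, against 152, 154 and 150.1 CPM in vehicle. None overlapped with vehicle, and the changes were -0.22, -0.20, -0.16 and -0.15 (adjusted p of 0.00484, 0.00319, 0.0195 and 0.0434). The count was 2 without vehicle replicate 2, 1 without angelica replicate 1 and 0 without angelica replicate 2. MYC had 60.8 and 56.3 CPM, at -0.10 (adjusted p = 0.448). At the low dose 4 genes were lower (DKC1, PES1, RRP12 and DDX21, at -0.16 to -0.19), against 0.692% of all genes. The count of 4 was 0 without vehicle replicate 1 or 2 or angelica low replicate 1, and 2 without vehicle replicate 3. Without angelica low replicate 2, which stood apart, NCL, PES1 and WDR43 were lower, and without all 5 such libraries 9 genes were lower and 1 higher. At the medium dose edgeR called 0, against 1.47% of all genes higher, 1.44% lower and 2.91% in either direction, and DESeq2 called 4, and 9 of 34 had an unadjusted p under 0.05.

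Poria high lowered 3 genes and raised 0, against 6.41% and 5.17% of all genes, with a median of -0.04. The count of 3 was near the share of all genes. UBTF had 92.6, 94.3 and 95.3 CPM in poria libraries, against 107, 107 and 102 CPM in vehicle libraries, MYBBP1A had 139, 139 and 135 CPM, against 152, 154 and 150.1 CPM in vehicle, and GRWD1 had 71.4, 68.0 and 66.8 CPM, against 73.2, 78.3 and 74.0 CPM in vehicle. All 3 lay under vehicle, by -0.16, -0.15 and -0.13 (adjusted p of 0.00278, 0.0158 and 0.0246). The count was 1 without vehicle replicate 2 or poria replicate 3, and 2 without poria replicate 2. MYC had 62.4, 55.7 and 65.5 CPM, at -0.04 (adjusted p = 0.779). Against poria low only DDX21 was higher, near the 2.73% of all genes, at 0.16 (adjusted p = 0.018). The call ended without poria high replicate 1 or poria low replicate 2 or 3.

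Atractylodes high raised 3 genes and lowered 3, against 7.24% and 6.63% of all genes, with a median of 0.01. Both counts were near the shares of all genes. The higher genes were GAR1, with 30.5, 24.8 and 22.9 CPM in atractylodes libraries, against 22.8, 22.8 and 21.0 CPM in vehicle libraries, NHP2, with 139.9, 116 and 120.0 CPM, against 109.8, 111 and 109 CPM in vehicle, and NOP56, with 187, 178 and 175 CPM, against 161, 168 and 159 CPM in vehicle. Replicate 1, the library that stood apart, was the highest in all 3. The changes were 0.23, 0.19 and 0.15 (adjusted p of 0.0101, 0.0379 and 0.0331), and all 3 calls ended without that library. UBTF had 88.5, 88.9 and 89.2 CPM, against 107, 107 and 102 CPM in vehicle, WDR43 had 82.7, 79.5 and 81.5 CPM, against 89.4, 91.6 and 90.1 CPM in vehicle, and RRP1B had 83.2, 92.7 and 91.9 CPM, against 96.8, 97.6 and 97.4 CPM in vehicle. These lay under vehicle, by -0.25, -0.15 and -0.12 (adjusted p of 7.31e-06, 0.0166 and 0.0247), and RRP1B was not called without replicate 1 (adjusted p = 0.359). Of all 34 genes, 2 were called without replicate 1, both lower. The count was 1 without vehicle replicate 3, 3 without vehicle replicate 1 or 2, and 9 without atractylodes replicate 3, and it was 1 in DESeq2 and in edgeR on the 2 groups alone.

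Set against atractylodes high in the same set, poria high had 1 gene higher (NOLC1 at 0.12) and 6 lower (GAR1, RRP9, NOP56, NHP2, NOP58 and NPM1, at -0.21 to -0.13), against 7.72% and 8.90% of all genes. The count was 1 without atractylodes replicate 1, 4 without all 5 libraries that stood apart and 2 without poria replicate 2. Poria medium and atractylodes low each had 1 called gene against vehicle, MYBBP1A at -0.16 (1.04% of all genes lower, 1.47% in either direction) and DDX21 at -0.17 (0.480% lower). The first call ended without any 1 library, and the second without any vehicle library or atractylodes low replicate 2 or 3, MYBBP1A being called in its place without the last. Poria low, atractylodes medium, ginseng medium and ginseng low had 0 called genes in edgeR's test, where 0.419%, 1.06%, 0.569% and 0.592% of all genes were called in either direction. In atractylodes medium 0.675% were higher and 0.385% lower, and in ginseng medium 0.402% were lower. DESeq2 called 2, 3, 4 and 1 of the 34 genes in these groups, and 6, 8, 12 and 9 had an unadjusted p under 0.05 in edgeR. Without ginseng low replicate 1, which stood apart, ginseng low had 2 genes lower, and without all 5 such libraries 6. DDX21 was called in ginseng medium without its replicate 1.

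Atractylodes high against low and angelica high against low had 0 called genes in edgeR and DESeq2, where 4.10% and 0.943% of all genes were called in edgeR in either direction. Of the 34 genes 10 and 5 had an unadjusted p under 0.05. Without atractylodes high replicate 2 or 3 the count was 3, and without atractylodes low replicate 1 it was 2. Without angelica low replicate 1 the count was 3, with MYC lower in angelica high at -0.34 (adjusted p = 0.0152).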

How the data were processed

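RNA sequencing of 60 SW1783 libraries was analysed from 1 table of expected counts per gene that the authors deposited. Per the submitters' processing notes the tools included RSEM 1.3.3, STAR 2.7.3a, Trim Galore 0.6.5 and FastQC 0.11.9, with GRCh38. Neither labels nor header name the strand setting of the counting. Of 279 columns, 60 were matched to samples by name and 219 were not used. Values that were not whole (9.5%, tolerance 1e-06) were rounded.

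In edgeR 4.0.16 (R 4.3.3) genes were kept by filterByExpr (minimum count 10, minimum total 15), scaled by TMM, and fitted by the quasi-likelihood model with 1 coefficient per group over all libraries. Of the genes, 17919 were tested in 31 comparisons, with Benjamini-Hochberg adjustment over all of them within each comparison and a threshold of 0.05. SE is the log2 fold change divided by the root of F. The procedure was tested on simulated counts. No pair of replicates agreed within sampling noise (lowest chi-square per degree of freedom 2.18).

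The members and lists were chosen with earlier results of these data known. All 34 members are accounted for. Values by library are given for MYC and for up to 3 called members with the largest and up to 3 with the smallest fold change after each drug and each high dose, and each is then given for all 3 drugs. MYBBP1A, NOP56 and DDX21 after the drugs, and NOP53, were added after their values were seen. Up to 3 genes per list are named by p, with their values in the other drugs. Alternatives were DESeq2 1.42.0, RLE scaling, no filter, a replicate block, the 2 groups alone and leaving out each library. Leaving out the 5 libraries that stood apart (also for the sums), and low doses in place of vehicle, were added after the data were seen.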

Additional observations from a re-analysis of the deposited data

How the results depend on the processing

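Counts of members called after the 3 drugs against vehicle stayed within 1.5 times under each alternative run. Elsewhere counts moved further, as follows, with vehicle as the reference unless another is named. Counts of all genes moved too, so these counts alone do not set members apart from all genes. With edgeR on the 2 groups alone, poria high had 3583 of 16004 genes called, a share near that of its 7 members. Without the 5 libraries that stood apart, licorice medium had 3055 of 18214 genes called, also near its 7 members. Ginseng high, with 14 members called on the 2 groups alone, lay above its 2975 of 15996 genes. The other runs are given without such shares. The count was 1 for poria high, 1 for angelica high, 0 for poria medium, 2 for angelica low, 3 for peony low, 5 for wortmannin against LY294002, 0 for poria high against poria low, 3 for licorice high against licorice low and 1 for peony high against angelica high with no filter on low counts. The count was 7 for poria high, 1 for atractylodes high, 14 for ginseng high, 7 for angelica high, 2 for poria medium, 3 for atractylodes medium, 3 for licorice medium, 4 for ginseng medium, 8 for angelica medium, 13 for peony medium, 3 for poria low, 6 for licorice low, 0 for angelica low, 14 for peony low, 2 for poria high against poria low, 12 for licorice high against licorice low, 0 for peony high against peony low and 0 for poria high against atractylodes high with edgeR on the 2 groups alone. The count was 5 for poria high, 1 for atractylodes high, 13 for ginseng high, 3 for atractylodes medium, 4 for licorice medium, 4 for ginseng medium, 4 for angelica medium, 5 for peony medium, 2 for poria low, 2 for atractylodes low, 6 for licorice low, 1 for ginseng low, 2 for angelica low, 7 for wortmannin against LY294002, 0 for peony high against peony low and 1 for poria high against atractylodes high in the DESeq2 Wald test. The count was 2 for atractylodes high, 7 for peony high, 7 for licorice medium, 6 for ginseng low, 10 for angelica low, 0 for peony high against peony low and 4 for poria high against atractylodes high without the 5 libraries that stood apart. The count was 1 for atractylodes medium, 2 for ginseng medium, 2 for angelica medium, 5 for peony medium, 1 for poria low, 3 for atractylodes low, 3 for licorice low, 1 for ginseng low, 1 for atractylodes high against atractylodes low, 1 for angelica high against angelica low and 2 for peony high against peony low with the replicate block. The count was 1 for angelica medium, 4 for peony medium, 3 for atractylodes low, 2 for licorice low and 1 for ginseng low with RLE size factors. Leaving out 1 library gave counts of 0 to 3 for angelica high against angelica low, 0 to 3 for angelica high, 0 to 3 for angelica low, 0 to 0 for angelica medium, 0 to 3 for atractylodes high against atractylodes low, 1 to 9 for atractylodes high, 0 to 1 for atractylodes low, 0 to 0 for atractylodes medium, 4 to 6 for licorice high against licorice low, 11 to 13 for licorice high against ginseng high, 9 to 12 for licorice high, 0 to 2 for licorice low, 3 to 11 for licorice medium, 30 to 32 for LY294002, 0 to 2 for peony high against angelica high, 0 to 2 for peony high against peony low, 3 to 17 for peony high, 0 to 5 for peony low, 0 to 0 for peony medium, 0 to 0 for ginseng high against ginseng low, 4 to 6 for ginseng high, 0 to 2 for ginseng low, 0 to 1 for ginseng medium, 1 to 9 for poria high against atractylodes high, 0 to 1 for poria high against poria low, 1 to 4 for poria high, 0 to 0 for poria low, 0 to 0 for poria medium, 29 to 30 for thioridazine, 5 to 9 for wortmannin against LY294002 and 28 to 30 for wortmannin. The log2 fold change of MYC, not called in these comparisons, changed sign to 0.048 for peony high without the 5 libraries that stood apart, -0.059 for ginseng low without the 5 libraries that stood apart, -0.0104 for angelica low without the 5 libraries that stood apart, 0.091 for peony high against peony low without the 5 libraries that stood apart and 0.0014 for peony high against peony low with edgeR on the 2 groups alone. Leaving out 1 library took MYC across 0 in angelica low (-0.0099 to 0.24), atractylodes high (-0.012 to 0.047), peony high against angelica high (-0.089 to 0.15), peony high against peony low (-0.14 to 0.089), peony high (-0.19 to 0.0498), peony low (-0.12 to 0.017), ginseng low (-0.061 to 0.066), poria high against atractylodes high (-0.10 to 0.013), poria high against poria low (-0.056 to 0.0699), poria high (-0.089 to 0.027), poria low (-0.10 to 0.021) and wortmannin (-5.4e-05 to 0.051). MYC lost its call between wortmannin and LY294002 with RLE size factors (adjusted p = 0.0513) and with no filter (adjusted p = 0.0766). The cause of these moves was not tested. Samples were not treated as pairs by replicate number, since every same-number correlation was over 0.1 in 0 of 22 comparisons with 3 pairs. Most of these comparisons were between sets of sample codes, so this rule cannot exclude pairing within a set. In atractylodes high against low the highest correlation was 0.225. The replicate block called more of all genes in each comparison, for ginseng low 188, against 106 in the main fit. Over the genes other than MYC called after a drug or a high dose and the settings that leave out no single replicate, calls were kept 756 times and lost 51 times, with 0 changes of sign, and the replicate block lost none of them. The losses were uneven. In DESeq2 wortmannin, LY294002 and thioridazine each lost 1 call, of 31, 31 and 30. Atractylodes high lost 5 of 6 there and peony high 4 of 14, and the other high doses lost none. These small changes rest on 2 or 3 libraries a group, which limits their precision.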
